A study of Mus musculus with 60 samples.

Results

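The dual-specificity MAP kinase phosphatases described here are the products of 10 mouse genes, Dusp1, Dusp2, Dusp4, Dusp5, Dusp6, Dusp7, Dusp8, Dusp10, Dusp14 and Dusp16. A peak was counted for a gene when the authors' annotation gave it that gene's symbol, which it did for 199 of the 256375 peaks in 12 lists. Of these, 98 were H4K8ac peaks at 8 of the 10 genes, where 52.0% of all 21911 protein-coding genes had H4K8ac in at least 1 list. The other 101 were H3K27me3 peaks, and every one of them was assigned to Dusp10, where 28.1% of all genes had H3K27me3 in at least 1 list. No peak of either mark was assigned to Dusp2 or Dusp7 in any list.

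Dual-specificity phosphatases remove phosphate from both the threonine and the tyrosine of the activation loop of MAP kinases, and so end the signal of ERK, JNK and p38. Dusp1, Dusp2, Dusp4 and Dusp5 are inducible nuclear enzymes, Dusp6 and Dusp7 are cytoplasmic enzymes selective for ERK, and Dusp8, Dusp10 and Dusp16 prefer JNK and p38. Dusp14 is a small member that lacks the kinase-binding domain of the others. In neurons several of these genes are transcribed after synaptic activity, as part of the negative feedback on ERK. H4K8ac, acetylation of lysine 8 of histone H4, is a mark of active chromatin, and H3K27me3, trimethylation of lysine 27 of histone H3, is the mark of Polycomb repression.

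Both marks were profiled by CUT&RUN-seq in nuclei from the hippocampus of Emx1-NuTRAP mice, in which Emx1-Cre switches on a nuclear tag in Emx1-lineage cells, mostly excitatory neurons. The mice were male per the study's methods, and between postnatal days 21 and 41 were housed with free access to a running wheel (early-life exercise, ELE; called exercised) or without a wheel (sedentary); all groups carried the same genotype and none had memory training. Nuclei came from the whole bilateral hippocampus by simultaneous isolation of nuclei and translating mRNA (SIT, 4 samples per mark and condition), or by separate isolation from the left or the right whole hippocampus (3 samples per mark, condition and side). The 60 samples include 20 with IgG, which are not analysed here, and each of the 12 lists pools 1 mark, condition and arm.

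The lists held between 9899 and 38136 peaks, with positions but no signal, count or p-value, so that the depth of a list is unknown and they give no replicate error. Reads and signal tracks of single libraries were not analysed here. The study names a lowest depth that its libraries reached, but not how deep each list was. Every comparison below is therefore between pooled lists, with no test, and presence or absence depends on how long a list is. The study's methods state that some exercised H4K8ac libraries were left out for a high false discovery rate, in the separate isolations and in SIT, and its comparison of SIT peaks with RNA counts fewer sedentary than exercised mice. Fewer libraries than the samples given above may therefore stand behind lists of either condition. The exercised left and right H4K8ac lists were the shortest of that mark, with 12168 and 13715 peaks, against 36425 and 25159 in the matching sedentary lists. In SIT the order was the other way, 38136 peaks in exercised and 30358 in sedentary mice. The labelled cell type was checked against marker genes. Over all genes 12.4% had H4K8ac and 10.7% had H3K27me3 in all 6 lists of the mark. Of 7 excitatory neuron markers, 5 (Camk2a, Neurod2, Neurod6, Emx1 and Tbr1) had H4K8ac in all 6 lists, and 1, Prox1, had H3K27me3 in all 6. Of 5 interneuron markers none had H4K8ac in all 6, though Sst did in 4, and Gad2, Pvalb, Sst and Vip had H3K27me3 in all 6. Of the glial markers, 1 of 5 for astrocytes (Aqp4), 1 of 5 for oligodendrocytes (Mbp) and none of 5 for microglia had H4K8ac in all 6. H3K27me3 was in all 6 at the astrocyte genes Aldh1l1, Aqp4 and Slc1a3, the oligodendrocyte genes Mag and Olig1 and the microglial gene Tmem119. These marker counts take any peak assigned to a gene. With peaks classed as promoter alone, H4K8ac was in all 6 lists at Tbr1 and the oligodendrocyte gene Mbp. It was in 4 at Camk2a, Neurod6 and Emx1, in 1 at Neurod2 and in 0 at Aqp4. H3K27me3 promoter peaks were in all 6 at Gad2, Pvalb, Sst, Vip, Aldh1l1, Aqp4, Olig1 and Tmem119. They were in 3 at Mag, in 2 at Prox1 and in 0 at Slc1a3. The part of other cells in the results was not tested.

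Sequences are shown for 4 gene starts and for some of the regions where the marks recurred, from the mm10 (GRCm38) build the lists use. The first set is the 250 bases before the RefSeq start of 4 genes, chosen for what the peaks showed there. At Dusp6 the start itself lay under H4K8ac in both SIT lists, Dusp1 had H4K8ac within 3 kb of its start in 3 lists and Dusp8 in 1, and the RefSeq start of Dusp10 was under neither mark in any list. Capitals mark matches, on either strand, to a cAMP response element (CRE, TGACGTCA), its core TGACG, a GC box (GGGCGG), an AP-1 site (TGANTCA), an E-box (CAGATG) or a TATA box (TATAAA). A CRE holds 2 overlapping TGACG matches, 1 on each strand.
Dusp1, chr17:26508473-26508722, minus strand: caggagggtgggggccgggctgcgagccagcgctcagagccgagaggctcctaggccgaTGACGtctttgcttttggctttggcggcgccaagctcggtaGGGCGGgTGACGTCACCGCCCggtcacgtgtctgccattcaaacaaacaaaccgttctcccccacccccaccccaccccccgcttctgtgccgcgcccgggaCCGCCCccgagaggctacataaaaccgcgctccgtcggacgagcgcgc
Dusp8, chr7:142095285-142095534, minus strand: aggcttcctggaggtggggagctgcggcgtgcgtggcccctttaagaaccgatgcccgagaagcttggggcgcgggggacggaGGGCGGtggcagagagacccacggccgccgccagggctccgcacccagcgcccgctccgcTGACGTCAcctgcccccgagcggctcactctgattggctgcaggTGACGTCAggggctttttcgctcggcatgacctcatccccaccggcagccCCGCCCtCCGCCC
Dusp6, chr10:99262981-99263230, plus strand: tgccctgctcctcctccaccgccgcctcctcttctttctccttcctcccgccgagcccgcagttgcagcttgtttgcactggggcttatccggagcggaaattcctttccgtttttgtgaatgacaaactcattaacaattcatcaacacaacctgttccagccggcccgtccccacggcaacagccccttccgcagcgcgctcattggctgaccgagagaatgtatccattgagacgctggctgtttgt
Dusp10, chr1:184034131-184034380, plus strand: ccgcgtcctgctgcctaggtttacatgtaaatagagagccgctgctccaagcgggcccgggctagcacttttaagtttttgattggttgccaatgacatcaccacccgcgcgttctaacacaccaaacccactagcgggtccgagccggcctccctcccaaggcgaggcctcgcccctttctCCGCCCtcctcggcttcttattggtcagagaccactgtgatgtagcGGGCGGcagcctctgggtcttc

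A CRE was present 1 time in the Dusp1 window and 2 times in that of Dusp8, while 1.55% of all 32841 promoters in the RefSeq table hold one. TGACG without the full CRE occurred once more at Dusp1 and once each at Dusp5 and Dusp16, against 17.8% of promoters with any TGACG. GC boxes were found at Dusp1, Dusp2, Dusp5, Dusp8, Dusp10, Dusp14 and Dusp16, with 1 to 5 matches, and in 32.7% of all promoters. The windows of Dusp6 and Dusp7 held none of the 6 motifs. AP-1 sites, E-boxes and TATA boxes, in 6.75%, 14.4% and 12.4% of promoters, were not matched in any of the 9 members that had a promoter in the table. These windows were GC-rich, from 56.4% at Dusp6 to 77.2% at Dusp7, against a median of 52.4% over all promoters. A match is a run of letters and was not linked to binding here. Dusp4 is not in this set.

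The second set is 200 bases from the middle of the stretch that the largest number of lists shared, at the regions with a peak in 5 or all 6 lists of H4K8ac near Dusp6 and Dusp5, and at the last H3K27me3 region in all 6 lists near Dusp10. They are given on the plus strand. The Dusp16 region at chr6:134715383-134719928, also with H4K8ac in 5 lists, is not printed.
Dusp6 upstream, chr10:99228744-99228943, under H4K8ac in 6 lists: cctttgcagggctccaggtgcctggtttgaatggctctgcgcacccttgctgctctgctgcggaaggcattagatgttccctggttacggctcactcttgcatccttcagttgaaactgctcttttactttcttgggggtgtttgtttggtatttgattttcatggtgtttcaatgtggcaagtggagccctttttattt
Dusp6 near upstream, chr10:99251301-99251500, in 5 lists: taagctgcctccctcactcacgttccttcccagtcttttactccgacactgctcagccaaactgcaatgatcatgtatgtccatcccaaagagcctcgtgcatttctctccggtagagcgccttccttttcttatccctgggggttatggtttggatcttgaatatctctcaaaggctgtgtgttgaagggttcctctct
Dusp6 downstream, chr10:99367785-99367984, in 5 lists: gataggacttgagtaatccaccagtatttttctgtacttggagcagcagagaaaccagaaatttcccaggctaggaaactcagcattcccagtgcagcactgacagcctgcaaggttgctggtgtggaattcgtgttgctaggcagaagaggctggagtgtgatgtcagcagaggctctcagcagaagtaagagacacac
Dusp6 far downstream, chr10:99376733-99376932, in 5 lists: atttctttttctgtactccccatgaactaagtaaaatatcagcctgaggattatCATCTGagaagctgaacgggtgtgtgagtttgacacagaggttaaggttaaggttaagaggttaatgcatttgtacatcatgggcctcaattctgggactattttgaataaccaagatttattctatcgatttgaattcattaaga
Dusp5 upstream, chr19:53500516-53500715, in 4 lists: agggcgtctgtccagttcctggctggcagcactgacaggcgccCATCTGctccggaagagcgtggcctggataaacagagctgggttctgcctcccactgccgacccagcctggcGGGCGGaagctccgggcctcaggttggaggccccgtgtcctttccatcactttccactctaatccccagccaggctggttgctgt
Dusp10 downstream, chr1:184269041-184269240, under H3K27me3 in 6 lists: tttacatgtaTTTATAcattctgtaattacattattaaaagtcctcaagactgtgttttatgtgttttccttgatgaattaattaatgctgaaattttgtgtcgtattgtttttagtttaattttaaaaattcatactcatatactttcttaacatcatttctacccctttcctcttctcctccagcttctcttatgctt

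The Dusp6 regions had 1 to 5 CpGs and a GC content of 36 to 49.5%. The median for the centres of all H4K8ac peaks was 44.5%. The Dusp5 region was richer, at 64%, with 9 CpGs, 1 GC box and 1 E-box. The Dusp10 stretch was AT-rich, with 27.5% GC, 1 CpG and 1 TATAAA. An E-box is found in 16.3% and a GC box in 5.22% of 200-base windows at the centre of H4K8ac peaks, and TATAAA in 14.3% of those of H3K27me3.

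**Figure D1:**
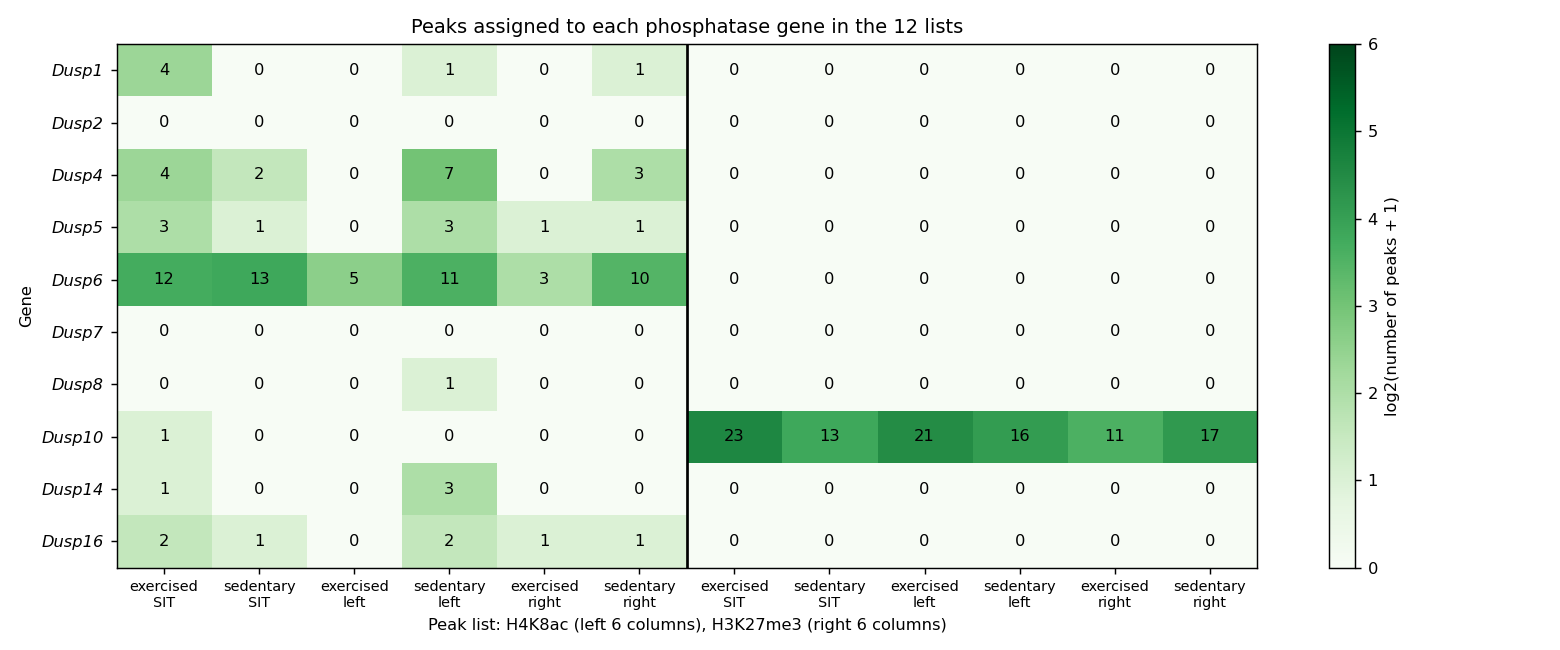
Number of peaks assigned to each of the 10 genes (rows) in each of the 12 pooled lists (columns, H4K8ac left and H3K27me3 right of the line), with colour on a log2(number + 1) scale. Dusp6 is the only one of the 10 with H4K8ac in all 6 lists (12.4% of all genes) and Dusp10 the only one with H3K27me3 in all 6 (10.7% of all genes), and the rows of Dusp2 and Dusp7 are 0 throughout.

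H4K8ac was found at 7 of the 10 genes in exercised SIT mice and at 4 in sedentary SIT mice, where 41.2% and 32.8% of all 21911 protein-coding genes had a peak. In the left separate arm it was at 1 gene in exercised and at 7 in sedentary mice, against 19.6% and 39.4% of all genes. In the right arm it was at 3 genes in exercised and at 5 in sedentary mice, against 22.1% and 31.6%. The number of genes thus followed the length of the list within each arm. A gene listed in exercised but not in sedentary mice is called gained, and the reverse lost. In SIT, Dusp1, Dusp10 and Dusp14 were gained and none of the 10 was lost, while over all genes 12.9% were gained and 4.54% lost. In the left arm Dusp1, Dusp4, Dusp5, Dusp8, Dusp14 and Dusp16 were lost and none was gained, with 21.3% of all genes lost and 1.45% gained. In the right arm Dusp1 and Dusp4 were lost and none was gained, with 12.7% lost and 3.24% gained overall. When the longer list of each pair was trimmed to its widest peaks so that both had equal numbers, Dusp1 and Dusp10 were gained in SIT, Dusp1, Dusp4, Dusp5 and Dusp16 were lost on the left and Dusp4 was lost on the right. Over all genes, the same trimming gave 10.1% gained and 6.25% lost in SIT, 6.18% gained and 6.17% lost on the left, and 7.35% gained and 6.08% lost on the right. Dusp1 and Dusp14 were gained in SIT and lost in a separate arm, so that their direction differed between arms. Over the 6 alternatives in how a gene was counted, the SIT gain was found again in 6 for Dusp1, in 3 for Dusp14 and in 1, that of equal numbers, for Dusp10, whose single peak is distal. The left loss was found again in all 6 for Dusp4, Dusp5 and Dusp16, in 5 for Dusp1, in 3 for Dusp8 and in 2 for Dusp14, and the right loss in 6 for Dusp4 and in 3 for Dusp1. Some changes were seen under alternatives alone. Dusp5 was gained in SIT under 4 of the 6 (promoter peaks alone, no distal intergenic peaks, any peak within 3 kb of the start and at least 2 peaks), and Dusp16 under 1, at least 2 peaks. Dusp6 was lost on the right under 2, promoter peaks alone and any peak within 3 kb, and Dusp5 under 1, the widest 50% of each list.

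Among the nuclear, inducible phosphatases, Dusp4, which acts on ERK, JNK and p38, had the most H4K8ac peaks: 4 in exercised SIT, 2 in sedentary SIT, 7 in sedentary left and 3 in sedentary right mice, and 0 in both exercised separate lists. The peaks fell into 5 regions (chromosome 8, plus strand). A region at chr8:34807709-34813356, from 0.099 to 5.75 kb past the start, and another at chr8:34814427-34817206, from 6.82 to 9.6 kb, were marked in the same 4 lists. Both lie within the gene. Upstream, chr8:34760704-34764741 (-46.9 to -42.9 kb) was marked in 3 lists, and chr8:34791772-34793226 (-15.8 to -14.4 kb) in 2, in stretches with no annotated gene. The summed width was 11747 bp in exercised and 2354 bp in sedentary SIT mice, with peaks of up to 4434 bp in exercised mice and 1299 bp at most in sedentary mice. Over all H4K8ac peaks the exercised SIT list had the higher median width, 1819 against 1265 bp, with 80.3 against 46.4 Mb covered. In the sedentary separate lists the sums were 10643 bp on the left and 7847 bp on the right. The 2 regions inside the gene were therefore marked in both conditions of SIT, and 2 of the 3 upstream regions in exercised SIT mice but not in sedentary SIT mice.

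Dusp1, an immediate early phosphatase of JNK and p38, had 4 peaks in exercised SIT mice, 1 in sedentary left, 1 in sedentary right and 0 in the other 3 lists. The gene (chromosome 17, minus strand) had a peak over its body at chr17:26506460-26508406 that began 0.066 kb past the RefSeq start in exercised SIT mice, and the peak of the sedentary right list lay within the same region. A second region, chr17:26502214-26505563, was shared by exercised SIT and sedentary left mice. It lay from 2.91 to 6.26 kb past the start, beyond the end of the gene. The exercised SIT peak there also covered the start of the lincRNA AC122252.2. The peak at chr17:26512356-26513286 (-4.81 to -3.88 kb) was in exercised SIT mice only among the 6 lists. The peak at chr17:26560682-26562321, -53.8 to -52.2 kb from the start, covered the start of Ergic1 and of a long Dusp1 isoform. It was assigned to Dusp1 in exercised SIT mice, and all 3 sedentary lists also had a peak there, assigned to another gene. Of the 4 exercised SIT peaks, 1 overlapped a sedentary SIT peak. The CRE-bearing window printed above lies just before the peak over the gene body.

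Dusp5, a nuclear phosphatase selective for ERK, had 3 peaks in exercised SIT, 1 in sedentary SIT, 3 in sedentary left, 1 in exercised right, 1 in sedentary right and 0 in exercised left mice. The place that recurred was not the start but a region at chr19:53498790-53503268, -30.4 to -25.9 kb from it, with no annotated gene. It held a peak in 5 lists, and 4 of them shared the stretch printed above. The widest peak there was that of sedentary right mice, at 3832 bp, and the exercised right peak had 1180 bp. A region inside the gene, chr19:53531197-53533363 (2.05 to 4.22 kb), was marked in exercised SIT and sedentary left mice alone. Dusp2, which acts on ERK and p38 and is best known from activated leukocytes, had no assigned peak, and the nearest H4K8ac peak lay between 65.6 and 151 kb from its start.

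**Figure D2:**
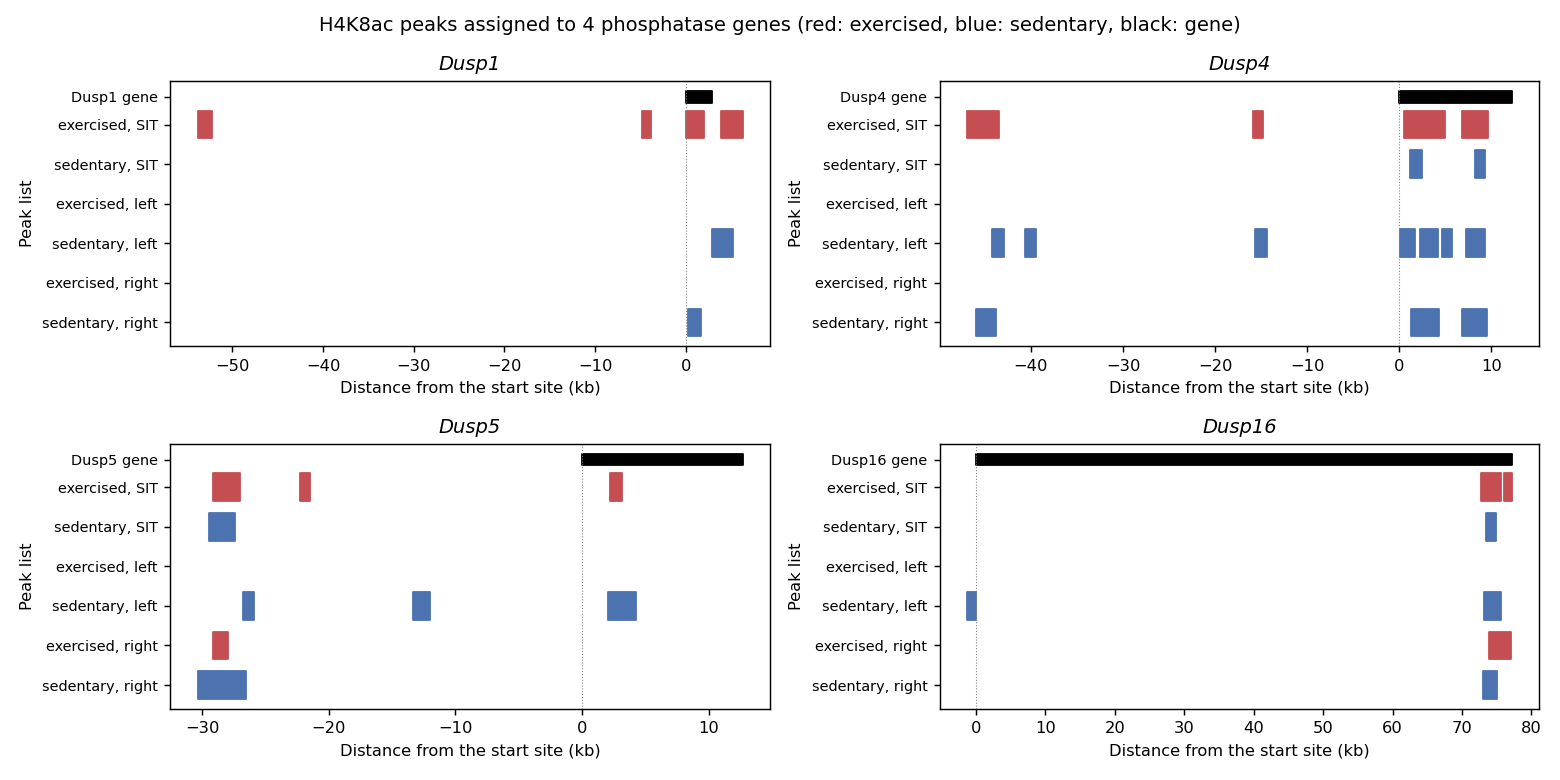
H4K8ac peaks assigned to Dusp1, Dusp4, Dusp5 and Dusp16 (panels), by distance from the RefSeq start in kb, with positive values downstream. Each row is 1 pooled list (red exercised, blue sedentary) and the black bar is the gene. The exercised left row is empty in all 4 panels, Dusp5 peaks gather about 28 kb before the start and Dusp16 peaks at the end of the gene.

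Dusp6, the cytoplasmic phosphatase of ERK and a target of ERK signalling itself, was listed for H4K8ac in all 6 lists, as were 12.4% of all genes. It had 12 peaks in exercised and 13 in sedentary SIT mice, 5 and 11 in the left arm, and 3 and 10 in the right arm. Sedentary mice thus had more peaks in every arm, by 1 in SIT, 6 on the left and 7 on the right. Summed widths were 23728 and 19687 bp in SIT, 9500 and 22918 bp on the left, and 4223 and 17699 bp on the right. In SIT the exercised list had fewer peaks but more bases, with median widths of 1628 and 1268 bp, as over all peaks of these lists (1819 and 1265 bp). With 54 peaks over the 6 lists, Dusp6 was 422nd of 11403 protein-coding genes with an H4K8ac peak, where the median gene had 5.

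These peaks stretched from -36.5 to 157 kb around the start (chr10:99263231, plus strand), and 28 of the 54 lay over 50 kb away. Few were at the gene itself: 3 touched the 4259 bp gene, and 6 were classed as promoter, in 5 lists. The start base was inside a peak in exercised and sedentary SIT mice. In exercised right mice, the list with 3 Dusp6 peaks, the nearest was 14.3 kb away. After merging over lists there were 23 regions, of which 1 was marked in all 6 lists, 3 in 5, 3 in 4 and 12 in a single list. The region in all 6 was chr10:99226729-99230193 (-36.5 to -33 kb), with 900 bp common to every list (chr10:99228395-99229294). This common stretch held the start of the lincRNA Gm34574. The regions in 5 lists, all missing in exercised right mice, were chr10:99249512-99252827 (-13.7 to -10.4 kb), chr10:99365533-99369059 (102 to 106 kb) and chr10:99374459-99379211 (111 to 116 kb). The latter pair lay in the lincRNA B530045E10Rik, which overlapped 30 of the 54 peaks, with none over its start. In all, 40 peaks overlapped a lincRNA and 11 no annotated gene. The authors' annotation gives each peak a single gene by nearness, and the protein-coding neighbours of Dusp6, Poc1b upstream and Csl downstream, are 65.2 and 490 kb away.

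**Figure D3:**
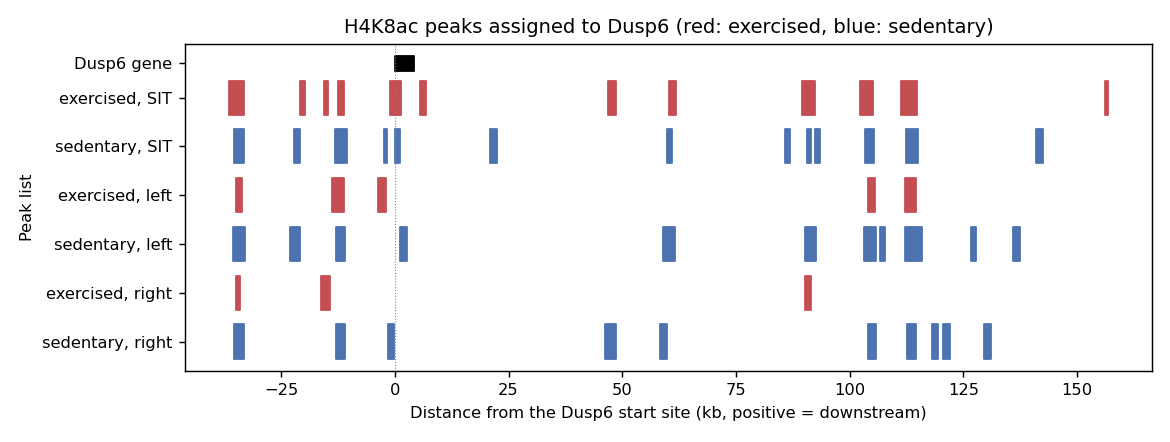
H4K8ac peaks assigned to Dusp6 in the 6 pooled lists (rows; red exercised, blue sedentary), by distance from the start in kb. A column of peaks about 34 kb upstream is present in all 6 rows, and the columns near 104 and 113 kb downstream in every row but exercised right.

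Dusp7, the close relative of Dusp6, had no assigned peak, and no H4K8ac peak came closer than 23.1 kb to its start in any list. The window of 100 kb on either side was nevertheless among the most acetylated around any gene. H4K8ac covered 24.9% of it in exercised and 15.7% in sedentary SIT mice, 14.3% and 25.5% on the left, and 7.87% and 17.5% on the right. In each list this was above at least 99.1% of all protein-coding genes, whose medians ran from 0 to 2.26%. The peaks belonged by the authors' annotation to Poc1a, with 4 to 15 peaks per list, Rpl29, with 2 to 6, Gpr62, with 1 in each list, and 4 other genes in some lists. Dusp6 came next among the 10 genes in SIT and on the left, with 15.3 and 9.73% in SIT, 6.21 and 11.8% on the left, and 3.09 and 7.65% on the right (exercised and sedentary). Coverage counts every peak in the window, whatever its name, so that a peak can lie in the window of Dusp7 without carrying its name.

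**Figure D4:**
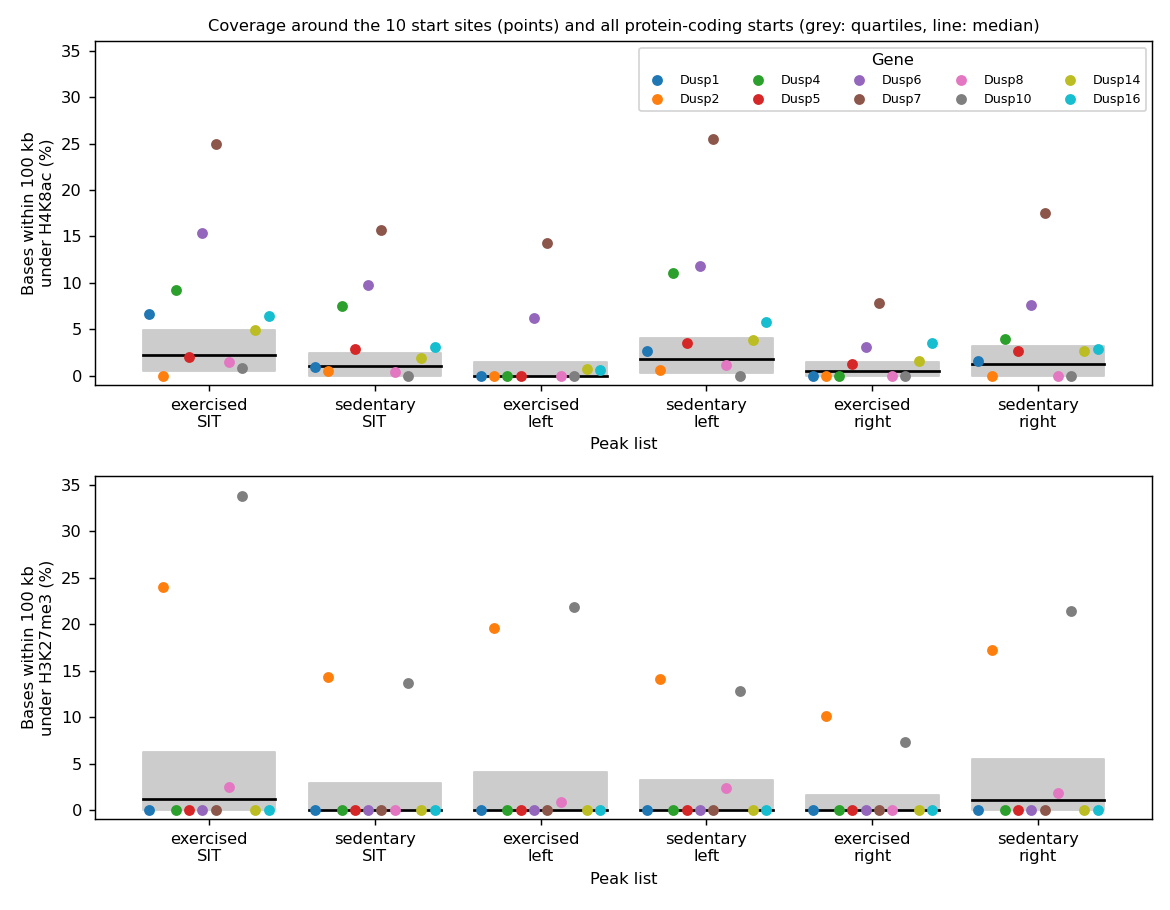
Share of bases within 100 kb of the start under H4K8ac (top) or H3K27me3 (bottom) in each pooled list, in percent. Points are the 10 genes, and grey boxes and lines are the quartiles and median of all 21911 protein-coding genes. Dusp7 is the highest H4K8ac point in all 6 lists, and Dusp2 and Dusp10 stand above the H3K27me3 quartiles in all 6.

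Of the phosphatases of JNK and p38, Dusp16 had 2 H4K8ac peaks in exercised SIT, 1 in sedentary SIT, 2 in sedentary left and 1 each in exercised and sedentary right mice, with 0 in exercised left mice. In these 5 lists the peaks were at the far end of the gene, chr6:134715383-134719928, between 72.7 and 77.2 kb past the start and all 6 of them were classed as 3′ UTR. Peaks there were 1122 to 3184 bp wide, the widest in exercised right mice. A peak just before the start used here, chr6:134792687-134793877 (-1.25 to -0.059 kb), was in sedentary left mice alone. It lay within the longest RefSeq model, whose 5′ end is at 134807063. None of these starts was under H4K8ac in any list. Dusp14 had 1 peak in exercised SIT mice, at chr11:84066244-84067395, from 0.962 to 2.11 kb past the start. Its 3 peaks in sedentary left mice were elsewhere in the gene, from 13.7 to 20.3 kb, so that the 4 peaks made 4 separate regions and the 2 lists shared none. Dusp8, a brain-expressed member, had a single peak of 831 bp in sedentary left mice, at chr7:142095491-142096321. It lay before the start used for the promoter sequence (142095284) and covered the 5′ end of the longest RefSeq (142095907) and GENCODE (142095843) models, and it was narrower than all but 3.91% of that list. That peak also covered the start of the divergent lncRNA Gm32786.

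Dusp10, which acts on JNK and p38, differed from the other 9 in the mark it carried. It had 1 H4K8ac peak in all 6 lists together, of 1586 bp in exercised SIT mice (chr1:183981387-183982972, -53 to -51.4 kb), and H3K27me3 in every list. H3K27me3 peaks numbered 23 in exercised and 13 in sedentary SIT mice, 21 and 16 on the left, and 11 and 17 on the right. The summed width was 125388 and 68756 bp in SIT, 98130 and 70147 bp on the left, and 42682 and 92474 bp on the right. Exercised mice thus had the longer sum in SIT and on the left and the shorter on the right, in the same order as the lengths of the lists: 25693 and 10279, 18262 and 14491, and 9899 and 21790 peaks. With 101 peaks Dusp10 was 100th of 6155 protein-coding genes with H3K27me3, where the median gene had 6.

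The peaks reached from -85.9 to 253 kb around the start (chr1:184034381, plus strand), 67 of them over 50 kb away. Of the 101, 22 touched the RefSeq gene, 2 touched only the longer GENCODE gene, which starts at chr1:184013302 (-21.1 kb), and 77 touched no annotated gene. The downstream neighbour, Hlx, lies 652 kb past the gene end. The upstream GENCODE start lay under 1 peak, in exercised SIT mice. No list had a peak over the RefSeq start base, and the nearest edge ran from 0.331 kb in sedentary left mice to 29.1 kb in exercised right mice. Along the gene the mark was denser in the second part. In exercised SIT mice it covered 69.5% of the first 20628 bp and 95.2% of the remaining 20628 bp, and in sedentary SIT mice 0 and 74.7%. On the left the values were 33.6 and 72.1% in exercised and 11.3 and 37.5% in sedentary mice. On the right they were 0 and 12% in exercised and 19.4 and 72.6% in sedentary mice. The second part was thus higher in all 6 lists, and exercised mice had the higher share in SIT and on the left and the lower on the right.

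Past the gene, H3K27me3 covered 11.5 to 28.2% of the next 100 kb and 28.1 to 53.8% of the 100 kb after that. The far segment was the denser in each of the 6 lists. Of 24 merged regions, 5 were marked in all 6 lists and 9 in 1. Base by base, 11 stretches of 1006 to 4259 bp, 26188 bp in all, were under H3K27me3 in every list. The first, chr1:184063527-184065999, is inside the gene. The longest, chr1:184267012-184271270, begins 233 kb past the start, and its middle is the AT-rich sequence printed above. The part of the domain common to both conditions and all arms was therefore mostly outside the gene. The exercised SIT H4K8ac peak lay 11.3 kb from the nearest H3K27me3 peak of the same mice. Of the 98 H4K8ac peaks at the 10 genes, 0 shared a base with H3K27me3 in mice of the same condition and arm. The share over all H4K8ac peaks is not given here, so this number cannot be read as particular to these genes.

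**Figure D5:**
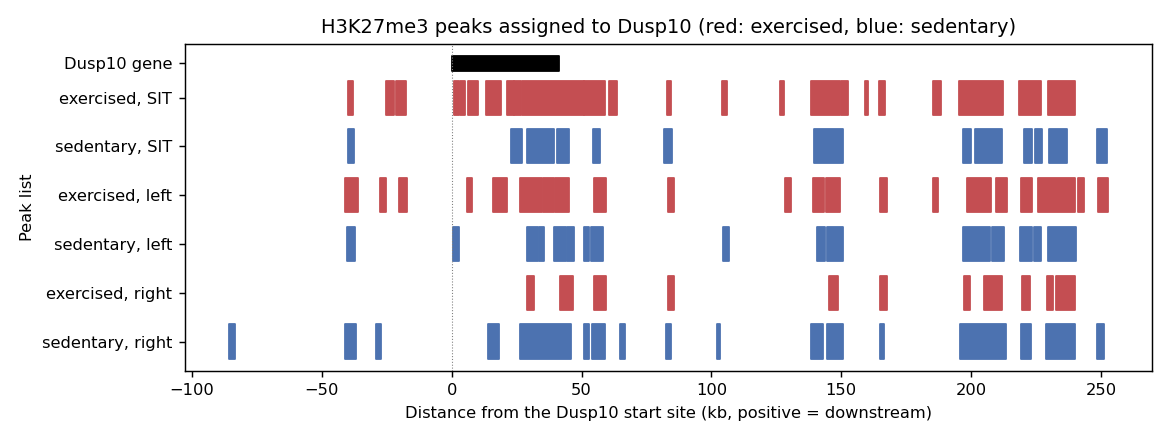
H3K27me3 peaks assigned to Dusp10 in the 6 pooled lists (rows; red exercised, blue sedentary), by distance from the start in kb, with the gene in black. The RefSeq start is uncovered in every row, the exercised SIT peak near -21.1 kb covers the upstream GENCODE start, and the blocks at about 145, 205 and 233 kb are present in all 6.

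For H3K27me3 as a whole, Dusp10 was the 1 gene of 10 listed in each list, where 24.6% of all genes were listed in exercised and 14.5% in sedentary SIT mice, 19.8% and 17.7% on the left, and 13.3% and 23.0% on the right. None of the 10 was gained or lost in any arm by this count. Counting its peaks near the start alone, Dusp10 was gained in SIT, both with promoter peaks (5.44% of all genes gained) and with any peak within 3 kb of the start (5.74%), and by the latter it was also lost on the left (1.28% of all genes lost). Over all genes 10.3% were gained and 0.242% lost in SIT, 4.01% and 1.99% on the left, and 0.68% and 10.4% on the right. For 7 of the other 9 genes (Dusp1, Dusp4, Dusp5, Dusp6, Dusp7, Dusp14 and Dusp16), no H3K27me3 peak came within 100 kb of the start in any list. The exceptions were Dusp8, with up to 2.44% of its window covered, and Dusp2. Around Dusp2, H3K27me3 covered 24.1 and 14.4% in SIT, 19.6 and 14.1% on the left, and 10.1 and 17.2% on the right (exercised and sedentary). These values were above at least 91.8% of all genes in each list, and the peaks were assigned to Adra2b, Gpat2 and Astl. The nearest was 6.28 kb from the Dusp2 start. The values for Dusp10 in the same window were 33.8 and 13.7%, 21.8 and 12.8%, and 7.31 and 21.4%.

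The positions of peaks were compared within arms. Of the 27 H4K8ac peaks at the 10 genes in exercised SIT mice, 12 overlapped a sedentary SIT peak by at least 1 bp, as did 43.9% of all peaks of that list. On the left 4 of 5 and on the right 3 of 5 did so, against 73.1% and 68.0% of all peaks. For H3K27me3 at Dusp10 the numbers were 11 of 23 in SIT, 11 of 21 on the left and 11 of 11 on the right, against 37.2%, 61.4% and 94.7% of all peaks. In the exercised right list, the shortest, each Dusp10 peak thus overlapped a place marked in sedentary mice. When overlap had to reach 50% of both peaks, the H4K8ac numbers were 6, 4 and 0, against 24.1%, 43.0% and 39.2% of all peaks, and those of H3K27me3 were 6, 9 and 5, against 24.8%, 41.3% and 31.5%.

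The rest of the pathway was read in the same way, beside the 12.4% of all genes with H4K8ac and the 10.7% with H3K27me3 in all 6 lists. Of 15 other dual-specificity phosphatases, 8 had H4K8ac in at least 1 list and 6 had H3K27me3, against 52.0% and 28.1% of all protein-coding genes. Dusp26, a brain-expressed phosphatase, was in all 6 lists of both marks, Dusp19 in all 6 of H4K8ac and Dusp12 in all 6 of H3K27me3. Of the 10 MAP kinases, 8 had H4K8ac in some list, but only Mapk10, the neuronal JNK3, in all 6. Mapk13, a p38 kinase, had no H4K8ac and was in all 6 H3K27me3 lists, as the only MAP kinase with that mark. Of 10 MAP kinase kinases and RAF kinases, 9 had H4K8ac in some list, with Map2k5 and Map2k6 in all 6, and 2 had H3K27me3. Of the 7 Sprouty and Spred inhibitors of ERK signalling, Spry3 was not among the annotated protein-coding genes, and no peak carried its symbol. Of the other 6, Spry2 and Spred2 had H4K8ac in all 6 lists and Spry4 and Spred2 had H3K27me3 in all 6. Among 3 tyrosine phosphatases that bind MAP kinases, Ptprr was in all 6 H4K8ac lists.

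Gains and losses of H4K8ac in these lists are given beside the shares over all genes, 12.9% gained and 4.54% lost in SIT, 1.45% and 21.3% on the left, and 3.24% and 12.7% on the right. Of the 10 MAP kinases 5 were gained and 0 lost in SIT, 0 gained and 5 lost on the left, and 1 gained and 1 lost on the right. Of the 15 other dual-specificity phosphatases 4 were gained and 0 lost in SIT, 0 gained and 3 lost on the left, and none changed on the right. Of the 10 MAP kinase kinases and RAF kinases 3 were gained and 0 lost in SIT, 1 gained and 4 lost on the left, and 2 gained and 1 lost on the right. Of the 6 annotated Sprouty and Spred genes none changed in SIT, 1 was lost on the left, and 1 was gained and 1 lost on the right. Of the 3 tyrosine phosphatases 1 was gained in SIT.

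The genes whose summed peak widths followed those of Dusp6 most closely over the 12 lists, on a log10(bp + 1) scale, were Mvb12b, 1700019D03Rik and Gm10421, with Pearson's r of 0.99994, 0.99992 and 0.99990. For Dusp10 they were Slc25a21, Cd109 and Tent5a, with r of 0.99993, 0.99989 and 0.99983. These values were the highest of 6812 genes compared and are a description over 12 pooled lists. On this scale a list without a peak has the value 0, so that r depends strongly on which lists hold a peak. Dusp6 had H4K8ac in all 6 lists and no H3K27me3, so that genes with H4K8ac alone in all 6 have a high r with it. Dusp10 had H3K27me3 in all 6 lists and H4K8ac in exercised SIT mice alone.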

How the data were processed

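CUT&RUN-seq of H4K8ac and H3K27me3 in hippocampal nuclei was analysed from 12 peak lists; reads and signal tracks of single libraries were not analysed here. Per the study's methods and the submitters' processing notes, the authors checked reads with FastQC (0.11.9), aligned them with Bowtie2 (2.4.1), used SEACR in stringent mode for peak calling and annotated peaks with ChIPseeker (1.8.6) on mm10, with promoters within 3 kb of a start. The deposited columns used hold positions and widths in bp, with no signal. How the libraries of a list were combined is not given in the sources used here, so each list is a pooled value with no SD, and no test was run. Groups came from the labels of the 60 samples.

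Lists were mapped to 21911 protein-coding genes of GENCODE M21 by symbol; 99.0% of the 31151 transcripts named in the lists were in that release, and all 30854 of these had the same coordinates. RefSeq (GRCm38.p6) gave gene starts and promoter sequences, which 9 of the 10 genes have in its table. Intervals were handled in Python 3 scripts checked on simulated data, where 20 of 20 sets matched base-by-base counts. Alternatives were promoter peaks alone, no distal intergenic peaks, any peak within 3 kb of the start, at least 2 peaks, the widest 50% of each list, equal list lengths and a 50% overlap. The 10 genes and the gene lists were chosen with earlier results of these data known. Values of the 10 genes are given for every list, also where they are 0; genes of the other lists are named where in all 6 lists of a mark, and 3 genes most alike to the member with the largest summed width of assigned peaks per mark.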

Additional observations from a re-analysis of the deposited data

Results flagged for a closer look

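For 6 combinations of gene and mark the number of peaks moved in opposite directions in 2 arms. Each difference between arms was not tested, since the lists are pooled. The share of all genes with such opposite moves was not counted. Over all genes, H4K8ac was gained more often than lost in SIT (12.9 against 4.54%). It was lost more often than gained on the left (21.3 against 1.45%) and right (12.7 against 3.24%). For H4K8ac at Dusp1, the exercised minus the sedentary number was 4 in SIT, -1 on the left and -1 on the right. At Dusp4 it was 2 in SIT, -7 on the left and -3 on the right, and at Dusp5 it was 2, -3 and 0. At Dusp14 it was 1, -3 and 0, and at Dusp16 1, -2 and 0. For H3K27me3 at Dusp10 it was 10 in SIT, 5 on the left and -6 on the right. In each case the sign, where not 0, was that of the difference in length between the 2 lists of the arm, and its part in these numbers was not tested. H4K8ac at Dusp6 was not of this kind, with fewer peaks in exercised mice in all 3 arms.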

How the results depend on the processing

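The results are numbers of genes or peaks, and an alternative value counts as close to the reported one when it is within 1.5 times of it. Leaving out distal intergenic peaks kept all 24 gene numbers this close. The genes were not the same, since Dusp10 was no longer gained for H4K8ac in SIT and Dusp5 was; the Dusp10 gain was absent under 5 of the 6 alternatives. With promoter peaks alone 17 of 24 stayed close. H4K8ac was then at 2 genes in sedentary SIT, 0 in exercised right and 3 in sedentary right mice (17.8, 12.4 and 19.5% of all protein-coding genes), and H3K27me3 at 0 genes in sedentary SIT and in both right lists (8.95, 7.68 and 13.2%), which made 1 gene, Dusp10, gained in SIT (5.44%). With any peak within 3 kb of the start, 15 of 24 stayed close. The same H4K8ac numbers, 2, 0 and 3, were found (15.0, 11.0 and 18.0%), H3K27me3 was at 0 genes in sedentary SIT, exercised left and both right lists (9.61, 11.9, 7.93 and 14.3%), and 1 gene, Dusp10, was gained in SIT (5.74%) and 1, again Dusp10, lost on the left (1.28%). With at least 2 peaks, 20 of 24 stayed close, and H4K8ac was at 2 genes in sedentary SIT, 1 in exercised right and 2 in sedentary right mice (17.2, 9.04 and 15.6%), with 1 lost on the right (7.5%). With the widest 50% of each list, 1 gene was gained for H4K8ac in SIT (9.7%). With equal numbers of peaks 1 was lost on the right (6.08%). Under the 50% overlap the numbers of overlapping exercised peaks were 6 in SIT and 0 on the right for H4K8ac, and 6 in SIT and 5 on the right for H3K27me3. The cause was not tested. No paired analysis was possible because the lists used here do not separate replicates, and for the same reason leaving out each replicate was not run. Absence from a list says only that no peak was called there at an unknown depth.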
